A study of Homo sapiens with 4 samples.

Results

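The 8 genes described here, MDH1, LDHB, BRI3BP, SACM1L, VEGFA, AGO1, MTCH2 and ACP2, are known for natural readthrough of their normal termination codon (NTC) in mammalian cells. They were taken by gene name from the 4 tables of the series, and each was present in all 4, among 8568 transcripts (a single transcript for each gene) listed in every table and 9271 listed in any. Ribosome profiling, which sequences the mRNA fragments protected by ribosomes (RPFs), was performed in HEK293T cells, a human embryonic kidney line carrying the large T antigen of a simian virus. Untreated cells and cells kept for 24 hours in G418, an aminoglycoside, at 500 ug/mL were each profiled in 2 biological replicates, named A and B. All cells grew in the same medium with serum and were lysed with cycloheximide. The question of the comparison was how an aminoglycoside changes readthrough at stop codons in their native contexts. All libraries come from a single transformed line, so the levels below belong to that line.

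A stop codon is normally read by a release factor, which frees the finished protein. In readthrough a near-cognate tRNA decodes the stop codon instead, and the ribosome continues in frame into the 3′UTR until the next in-frame stop codon (3′TC), so that a longer protein with a C-terminal extension is made. G418 binds the decoding center of the ribosome and raises miscoding, at stop codons too. MDH1 and LDHB are the best known examples in metabolism, because their extensions end in a peroxisomal targeting signal and send a small part of these cytosolic enzymes into peroxisomes.

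Stop codons and their neighbours are shown because the bases around an NTC are known to influence its readthrough. The sequences come from GENCODE version 44 on GRCh38 and run from 15 nt before the NTC to 12 nt after it, with the NTC in capitals.
MDH1: uuucuuuccucugccUGAcuagacaaugau
LDHB: gaccuaaaagaccugUGAcuagugagcucu
BRI3BP: cgcuccaaggacaagUGAaggucagccggc
SACM1L: aaagaaaagauagacUGAauuuguauuugu
VEGFA: gacaagccgaggcggUGAgccgggcaggag
AGO1: accauguacuucgcuUGAaggcagaacgcu
MTCH2: cugaaaauguuaauuUGAagauguggggca
ACP2: ggggaggaccacgccUGAcaaccacucagc
All 8 genes use UGA and each NTC lies in the last exon. The base after the stop codon is C in MDH1, LDHB and ACP2, A in BRI3BP, SACM1L, AGO1 and MTCH2, and G in VEGFA. MDH1 and LDHB share UGACUAG, a readthrough motif that only 7 of the 8901 transcripts matched to GENCODE carry (0.0786%). GENCODE tags 7 of the 8 as readthrough genes, all but MTCH2, whose readthrough is known from the literature.

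The extension ends differ more than the NTCs do. The last 15 nt of each open stretch are shown with the 3′TC in capitals, because this codon closes the region in which reads were counted.
MDH1: aaaugucgucuuUGA
LDHB: agcucuaggcugUAG
BRI3BP: cccaaacaaucuUAA
SACM1L: uggagucuuuacUGA
VEGFA: accaggaaagacUGA
AGO1: agggagguggggUAG
MTCH2: gugacauuucugUAG
ACP2: cccuccaccuccUAG
The number of sense codons between NTC and 3′TC is 18 in MDH1, 6 in LDHB, 30 in BRI3BP, 21 in SACM1L and VEGFA, 33 in AGO1, and 10 in MTCH2 and ACP2. Counting starts 6 nt downstream of the NTC and includes the 3′TC codon, so that LDHB is counted over only 15 nt and AGO1 over 96 nt. In LDHB the 3′TC codon therefore takes a larger part of the window than in the other genes, and elongating and terminating ribosomes cannot be told apart there.

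The transcripts measured were ENST00000233114.13 for MDH1 (chr2:63588963-63607197, plus strand), ENST00000350669.5 for LDHB (chr12:21635342-21657842, minus strand), ENST00000341446.9 for BRI3BP (chr12:124993645-125031231, plus strand) and ENST00000389061.10 for SACM1L (chr3:45689396-45745409, plus strand). The others were ENST00000520948.5 for VEGFA (chr6:43771083-43784949, plus strand), ENST00000373204.6 for AGO1 (chr1:35883209-35930532, plus strand), ENST00000302503.8 for MTCH2 (chr11:47617317-47642559, minus strand) and ENST00000256997.8 for ACP2 (chr11:47239305-47248906, minus strand).

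Libraries held 2440204 to 6082600 RPFs on mRNAs, the lowest number being that of untreated replicate B. Readthrough was measured as the ribosome readthrough score (RRTS), which relates RPF density in the stretch that ends with the first 3′TC in frame to RPF density on the CDS, and is given as a percent of CDS density. An aggregate RRTS over the 6509 transcripts with at least 128 mRNA reads in each condition was 1.99% in untreated A and 1.81% in untreated B, against 15.8% in G418 A and 15.1% in G418 B. The paper reports that 3′UTR RPFs kept the reading frame of the CDS with G418 but not in untreated cells. Low untreated RRTS, the aggregate included, is thus not shown to come from readthrough. Ratios and fold changes built on such values carry this limit. Intervals in brackets are exact Poisson 95% intervals for counting error only. With 2 against 2 libraries, an exact permutation test of a single value cannot go below p = 0.333, so that p-values are given only from models fitted across all transcripts.

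MDH1 encodes cytosolic malate dehydrogenase, which interconverts malate and oxaloacetate in the malate-aspartate shuttle. In untreated cells 29 RPFs lay before its 3′TC in replicate A and 20 in replicate B, an RRTS of 15.6% [10.4 to 22.4] and 27.9% [17.1 to 43.1]. At the aggregate RRTS, 3.72 and 1.29 RPFs would have been counted there, so that MDH1 stood 7.80 and 15.5 times above it. With G418, 100 and 91 RPFs gave 60.4% [49.1 to 73.4] and 63.1% [50.8 to 77.5]. The G418 libraries did not overlap the untreated ones and nearly equalled each other, with means of 21.7% ± 8.74 (SD, n = 2) untreated and 61.8% ± 1.93 treated.

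LDHB encodes the B subunit of lactate dehydrogenase, the form that favours the conversion of lactate to pyruvate. It gave the largest untreated count of the 8 genes, 110 and 37 RPFs, on a window of 15 nt. These are an RRTS of 29.4% [24.2 to 35.4] and 27.7% [19.5 to 38.1], which is 14.7 and 15.3 times the aggregate. With G418 the counts were 136 and 82, an RRTS of 50.5% [42.3 to 59.7] and 36.2% [28.8 to 44.9]. Both treated libraries were above both untreated ones, but G418 replicate B was closer to the untreated libraries than to G418 replicate A, and the means were 28.5% ± 1.24 and 43.3% ± 10.1 (SD, n = 2 each). The order of the 2 peroxisomal extensions therefore differed between libraries. The RRTS of MDH1 was 0.529 and 1.01 times that of LDHB in the untreated libraries (A, then B). It was 1.2 and 1.75 times that of LDHB in the G418 libraries. The counting intervals of both genes were apart in untreated A and G418 B, and overlapped in untreated B and G418 A.

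BRI3BP, a membrane protein that binds the brain protein I3, had the highest RRTS of the 8 genes in both conditions when replicates were pooled. Its untreated counts of 14 and 4 RPFs corresponded to 51.3% [28 to 86.0] and 31.4% [8.54 to 80.3], or 25.7 and 17.4 times the aggregate. With G418, 45 and 30 RPFs gave 134% [97.4 to 179] and 113% [76.1 to 161], so that density beyond the NTC was as high as that on the CDS within counting error. The groups did not overlap, with means of 41.3% ± 14.1 and 123% ± 14.7 (SD, n = 2 each).

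SACM1L encodes the SAC1 phosphatase, which removes phosphate from phosphatidylinositol 4-phosphate at the endoplasmic reticulum. Only 3 and 1 RPFs were counted before its 3′TC in untreated cells, an RRTS of 9.16% [1.89 to 26.8] and 8.74% [0.221 to 48.7], and both intervals include the aggregate. With G418, 14 and 10 RPFs gave 46.3% [25.3 to 77.7] and 41.9% [20.1 to 77.1], 2.93 and 2.78 times the aggregate of those libraries. Replicates were close in each condition, with means of 8.95% ± 0.294 and 44.1% ± 3.10 (SD, n = 2 each).

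VEGFA, the growth factor that drives blood vessel growth, could not be measured in these cells. No RPF lay before its 3′TC in either untreated library or in G418 replicate A, and a single RPF was found in G418 replicate B, an RRTS of 28.5% [0.721 to 159]. A count of 0 on 49 and 27 CDS reads allows an RRTS of up to 62.8% in untreated A and 114% in untreated B (3 reads per library), and of up to 99.2% in G418 replicate A, so that readthrough at the levels of the other genes was not detectable at this depth. VEGFA was the only one of the 8 below the minimum of 128 mRNA reads.

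AGO1, an Argonaute protein that carries small RNAs to their target mRNAs, had 1 RPF before its 3′TC in each untreated library. On 195 and 67 CDS reads this is an RRTS of 13.6% [0.344 to 75.6] and 39.5% [1.0 to 220]. With G418, 5 and 6 RPFs gave 49.4% [16.0 to 115] and 77.8% [28.6 to 169]. The treated libraries were above the untreated ones, with means of 26.5% ± 18.3 and 63.6% ± 20.1 (SD, n = 2 each), and all 4 intervals overlap.

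MTCH2, a mitochondrial outer membrane protein that inserts other proteins into this membrane, had the lowest pooled RRTS with G418 (23.1%) of the 7 genes with enough mRNA reads. Untreated replicate A held 1 RPF on 1448 CDS reads, an RRTS of 2.25% [0.0569 to 12.5], and replicate B held 0 on 590, which allows up to 16.6% (3 reads). With G418, 16 and 6 RPFs gave 31.7% [18.1 to 51.4] and 13.5% [4.94 to 29.3], on either side of the aggregate at 2.00 and 0.893 times its value. MTCH2 thus did not stand above the aggregate in both libraries of either condition, and its treated replicates differed by more than those of SACM1L (22.6% ± 12.9, SD, n = 2).

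ACP2, lysosomal acid phosphatase, had no RPF before its 3′TC in untreated cells on 321 and 134 CDS reads, which allows up to 42.9% and 103% (3 reads per library). With G418, 4 and 3 RPFs gave 58.3% [15.9 to 149] and 54.8% [11.3 to 160]. All 7 RPFs thus lay in the G418 libraries. Against an assumed floor of 3 reads over both untreated libraries, the pooled ratio would be 1.88. With the counting error of all 7 RPFs included, the exact 95% interval of the pooled ratio starts at 1.16. The spread between libraries is not part of it. ACP2 was seen only through its G418 RPFs, so that no rise is concluded from these values.

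**Figure D1:**
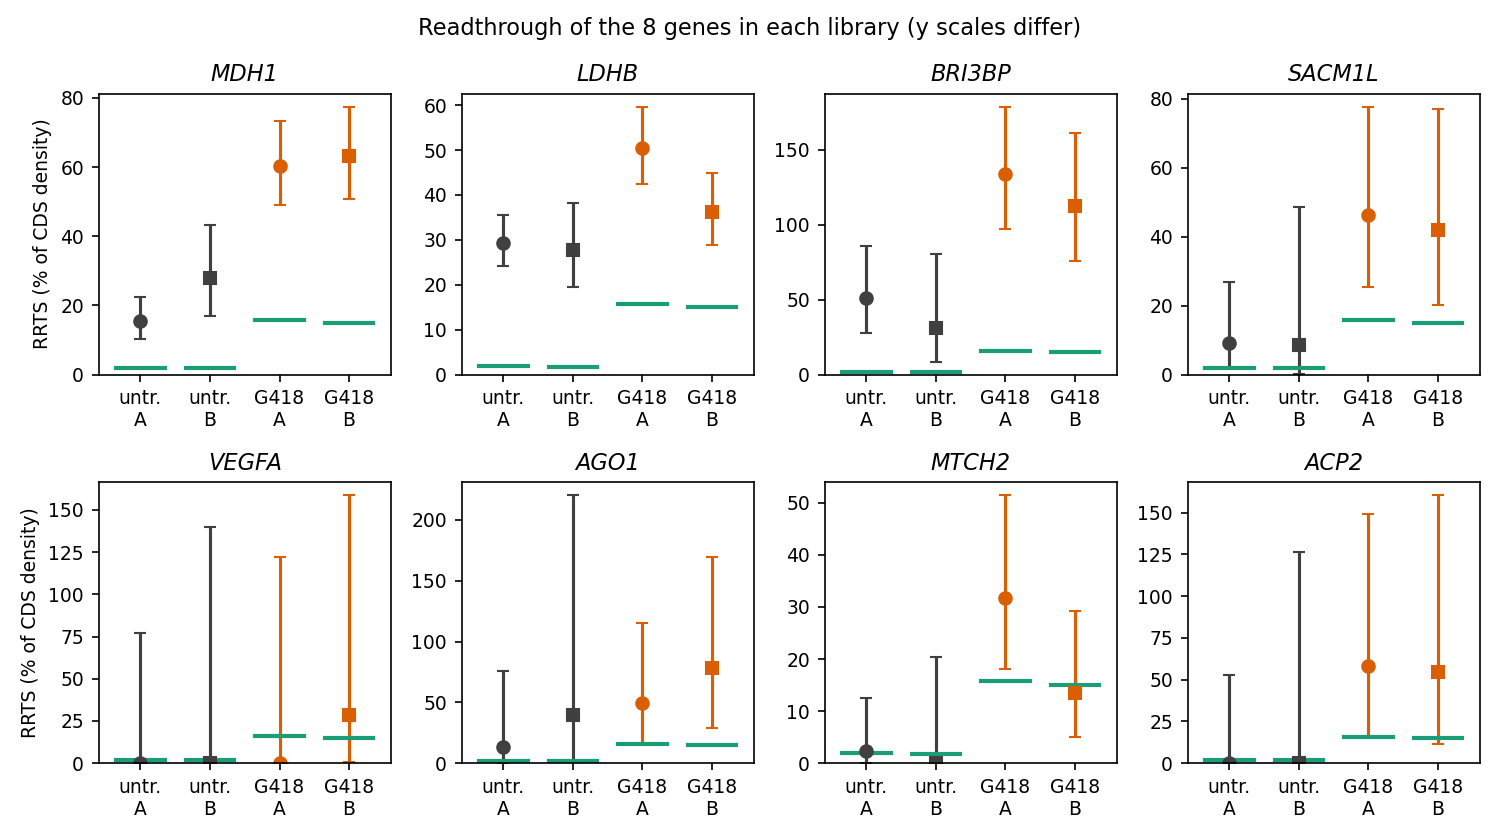
RRTS in percent of CDS density (y, a separate linear scale per gene) of the 8 genes in untreated replicates A and B (grey) and G418 replicates A and B (orange). Bars are exact Poisson 95% intervals and green lines the aggregate RRTS of each library. The points of MDH1, LDHB, BRI3BP, SACM1L and AGO1 lie above the green line in every library, but the untreated bars of SACM1L and AGO1 reach it. Those of VEGFA and ACP2 are at 0 in both untreated libraries, and MTCH2 straddles the line with G418.

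The genes were next placed among the transcripts with the same 4 nt stop codon (NTC and the following base), with replicates pooled and at least 128 mRNA reads in the condition. In untreated cells the aggregate RRTS of UGAC transcripts was 5.01% ± 0.178 and that of UGAA transcripts 2.44% ± 0.0424 (SD, n = 2), and 37.5% of 664 UGAC and 45.7% of 903 UGAA transcripts had no RPF before the 3′TC. LDHB was above 90.1% and MDH1 above 81.5% of the UGAC transcripts. BRI3BP was above 98.1%, AGO1 above 94.7%, SACM1L above 85.5% and MTCH2 above 55.4% of the UGAA transcripts, whose median RRTS was 0.888%. AGO1 and SACM1L reached these places with 2 and 4 untreated RPFs, and ACP2 was tied with the transcripts at 0.

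With G418, the aggregates of both classes were higher, and LDHB, MDH1, SACM1L, AGO1 and MTCH2 had lower places in their class than untreated. The aggregate of UGAC transcripts was 31.4% ± 0.913 and that of UGAA transcripts 21.4% ± 1.02 (SD, n = 2). LDHB was now above 56.1% of 759 UGAC transcripts, MDH1 above 75.6% and ACP2 above 69.7%. BRI3BP kept its place above 98.2% of 971 UGAA transcripts, AGO1 was above 86.7%, SACM1L above 74.8%, and MTCH2 was below the class median, above 42.6%. Against the aggregate of the same 4 nt stop codon, LDHB went from 5.73 and 5.66 times untreated to 1.57 and 1.18 times with G418, and MDH1 from 3.03 and 5.72 times to 1.88 and 2.05 times. BRI3BP went from 21.2 and 12.7 times to 6.02 and 5.44 times.

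**Figure D2:**
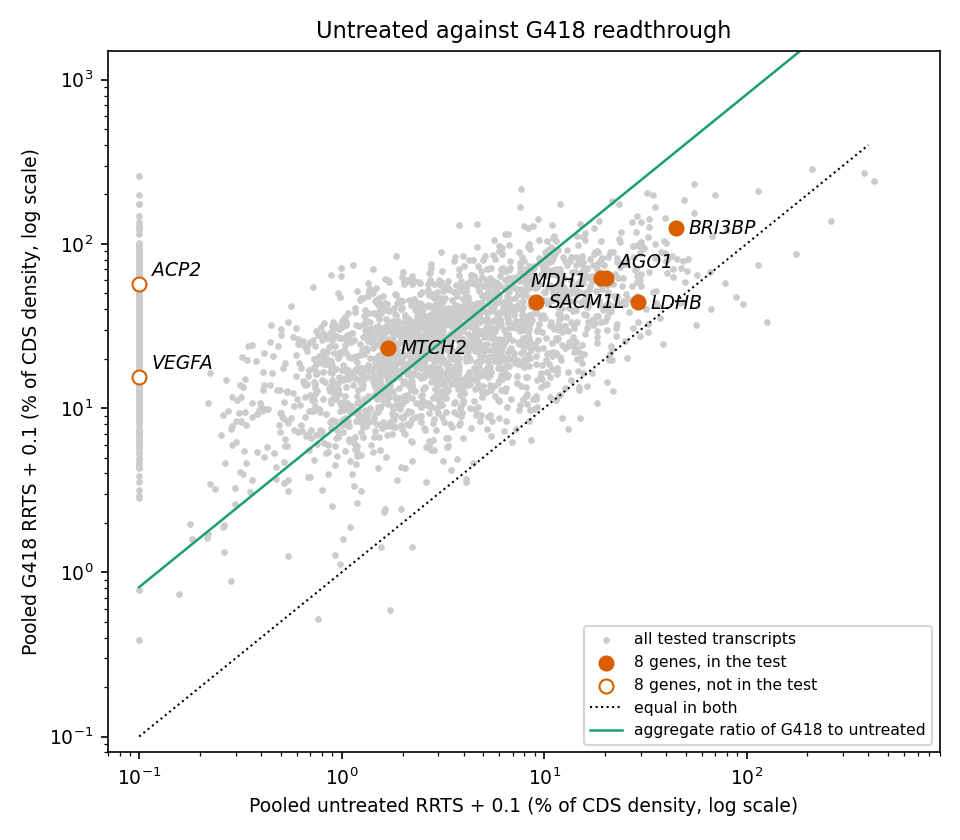
Pooled RRTS of untreated (x) and G418-treated (y) libraries in percent of CDS density, each with 0.1 added and on log scales, for the 2827 tested transcripts (grey) and the 8 genes (orange, open where not in the test). The dotted line marks equal values and the green line the ratio of the aggregates (8.13). MDH1, LDHB, BRI3BP, SACM1L and AGO1 lie between both lines and MTCH2 just above the green one.

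Transcripts that share UGACUAG differed in level. Of 6 transcripts with it in all 4 tables, 4 had enough mRNA reads, and LDHB (28.9% pooled) and MDH1 (19%) had the highest untreated RRTS, ahead of CGGBP1 (14.3%, from 0 and 3 RPFs) and PHF19 (8.83%, from 2 and 1 RPFs on a window of 465 nt). With G418 the order was CGGBP1 (74.1%, 16 and 14 RPFs), MDH1 (61.7%), LDHB (43.9%) and PHF19 (5.52%, 2 and 1 RPFs). CGGBP1, a protein that binds CGG repeats, had a log2 fold change of 2.29 ± 0.80 in readthrough and entered the test described next only through its G418 RPFs, so that its call is not used. PHF19 had too few RPFs for that test.

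Readthrough was then compared between conditions by a quasi-likelihood model in edgeR. It counted RPFs before the 3′TC with CDS reads as offset, over the 2827 transcripts with 10 or more such RPFs in all and 128 or more mRNA reads per condition. Of these transcripts 82.6% rose with G418 at an adjusted p-value of 0.05, and the median log2 fold change was 3.18. Of the 8 genes 6 were in the test and 5 of these rose, a share like that of all transcripts, so that a rise in itself sets none of them apart. SACM1L, AGO1 and MTCH2 reached the 10 RPFs only through their G418 libraries, so that the calls of SACM1L and MTCH2 are not used. ACP2 (7 RPFs) and VEGFA were not tested.

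MDH1 rose 3.18-fold (log2 fold change 1.67 ± 0.24, SE, adjusted p = 1.32e-11) and BRI3BP 2.76-fold (1.46 ± 0.38, adjusted p = 0.000277), both under every alternative tried. LDHB rose by the smallest amount, 1.51-fold (0.60 ± 0.18, adjusted p = 0.00160). This call was lost with DESeq2 (adjusted p = 0.143) and without G418 replicate A (0.156), over a range of adjusted p-values from 8.08e-13 to 0.156 among its alternatives. SACM1L, whose call is not used, had a log2 fold change of 2.23 ± 0.76 from 4 untreated and 24 G418 RPFs. MTCH2, whose call is likewise not used, had a log2 fold change of 3.61 ± 1.06. Its single untreated RPF leaves the pooled ratio of 14.5 with an exact 95% interval of 2.34 to 598.

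AGO1 had a log2 fold change of 1.53 ± 1.07 (adjusted p = 0.169) and a pooled ratio of 3.05 with an interval of 0.666 to 28.3, so that no change was detectable at this depth. For the genes with more reads the pooled ratios were 3.25 [2.36 to 4.54] in MDH1, 1.52 [1.23 to 1.88] in LDHB and 2.77 [1.64 to 4.92] in BRI3BP. SACM1L, whose call is not used, had a pooled ratio of 4.90 [1.68 to 19.4] on only 4 untreated RPFs. The intervals of MDH1 and LDHB do not overlap each other, but they hold the counting error of pooled reads only, without the spread between replicates. The difference between the rises of both genes was not tested.

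The rise of each gene was also set against the rise of the aggregate, by adding the aggregate RRTS of each library to the offset. Relative to it 5.73% of all transcripts were lower and 3.82% higher with G418, and the median over all transcripts was 0.34. Without untreated replicate A this median was 4.68 and that of readthrough itself 4.96, while without any of the other libraries they stayed at 0.32 to 0.37 and 3.13 to 3.21. With TMM normalization, this median was 0.64, and 115 transcripts were lower and 162 higher, compared with 162 lower and 108 higher against the aggregate. LDHB was lower, with a relative log2 fold change of -2.40 ± 0.19 (adjusted p = 1.45e-31) that had the second smallest p-value of the 2827. It stayed past the threshold under every alternative tried. MDH1 (-1.32 ± 0.27, adjusted p = 5.76e-05) and BRI3BP (-1.52 ± 0.45, adjusted p = 0.0114) were lower too, but the call for MDH1 was lost without untreated replicate B (0.0556), and that for BRI3BP with TMM (0.0726) and without untreated replicate A (0.655).

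SACM1L (-0.69 ± 0.93, adjusted p = 0.709), AGO1 (-1.34 ± 1.39, 0.592) and MTCH2 (0.83 ± 1.49, 0.803) did not pass the test, and their standard errors are too large to say that they moved with the aggregate. The 3 genes that were called are those with at least 10 RPFs in the untreated libraries alone. Of all 289 tested transcripts with that many untreated RPFs, 42.6% were lower relative to the aggregate and the median relative log2 fold change was -0.95. This set was defined after the values were seen, and the untreated RPFs that admit a transcript to it also enter its fold change.

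**Figure D3:**
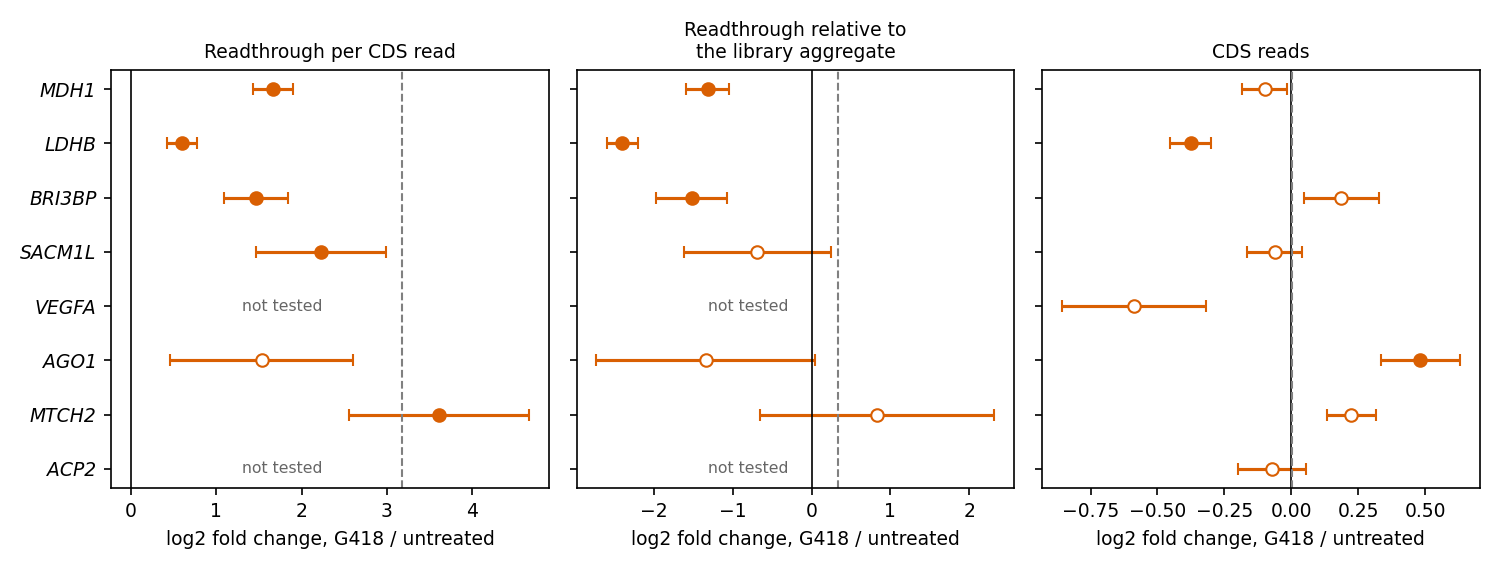
Log2 fold changes (x, G418 over untreated) with standard errors of the 8 genes in readthrough per CDS read, in readthrough relative to the library aggregate and in CDS reads. Filled points passed an adjusted p-value of 0.05, and dashed lines mark the median over all tested transcripts (3.18, 0.34 and 0.00). LDHB is leftmost in the first and second panels, while in CDS reads LDHB was called lower and AGO1 higher. The calls of SACM1L and MTCH2 in the first panel are not used.

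RPFs beyond the 3′TC show how far 3′UTR density extends. In MDH1 density after the 3′TC was 14.9% and 11.7% of that before it in the untreated libraries (A, then B) and 38.3% and 31.9% in the G418 libraries. It was thus higher in both treated libraries, from 13 and 7 RPFs to 115 and 87 RPFs on the 153 nt that followed. In LDHB these shares were 1.98% and 3.40% untreated and 7.64% and 8.79% treated, with 26, 15, 124 and 86 RPFs. In BRI3BP, whose 3′UTR goes on for 5708 nt, they stayed at or below 0.980% in every library, with 1 to 9 RPFs.

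In SACM1L the shares were 4.35% and 4.66% with G418, in ACP2 10.4% and 9.22%, in AGO1 0.887% and 0.739%, and in MTCH2 0.797% and 2.73%. Density was lower after than before the 3′TC in both G418 libraries for 7 of the 8 genes. VEGFA was the exception, with 6 RPFs after its 3′TC and none before it in G418 replicate A. The share over all transcripts was not determined. The stretch before includes the 3′TC codon, and the 3′UTR after it holds further in-frame stop codons. A lower density after the 3′TC therefore does not set these genes apart. The lengths compared differ between genes, so that a low share in a long 3′UTR and a high one in the 153 nt of MDH1 are not on the same footing. No test was run on these shares.

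**Figure D4:**
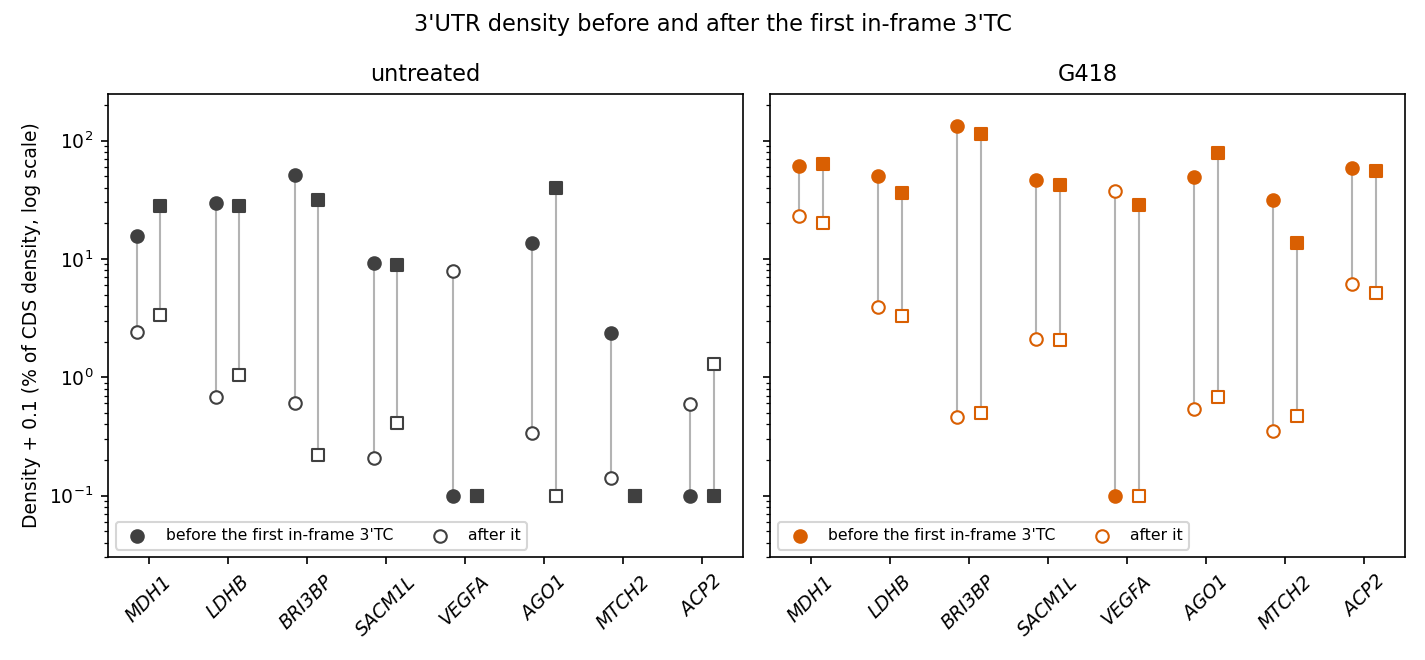
RPF density before (filled) and after (open) the first in-frame 3′TC as a percent of CDS density, with 0.1 added and on a log scale (y), for the 8 genes (x) in untreated (left) and G418-treated (right) cells, with circles for replicate A and squares for replicate B. Filled points lie above open ones for 7 of the 8 genes in both G418 libraries, and the distance is smallest in MDH1, where 38.3% and 31.9% of the density remained.

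CDS densities show how strongly each gene was translated, in RPKM, which is per length. LDHB was the highest, at 2793 and 2294 RPKM in the untreated libraries (A, then B) and 2143 and 1971 RPKM in the G418 libraries. MDH1 followed with 409, 361, 387 and 369 RPKM in the same order of libraries, and MTCH2 with 184, 173, 223 and 215 RPKM. SACM1L lay between 49.0 and 61.1 RPKM, BRI3BP between 35.2 and 46.2, ACP2 between 26.4 and 30.3, AGO1 between 6.78 and 12.6, and VEGFA between 6.01 and 11.3. Only AGO1 and VEGFA overlapped among neighbours in this order, while each of the other genes was above the next in every library.

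In the test of CDS counts over 8494 transcripts, 5.31% rose and 3.21% fell with G418, and the median log2 fold change was 0.00. LDHB fell by 0.38 ± 0.08 on the log2 scale (adjusted p = 0.00147) and AGO1 rose by 0.48 ± 0.15 (adjusted p = 0.0353). Both calls were lost without G418 replicate A (adjusted p = 0.198 and 0.666) and without G418 replicate B (0.251 and 0.334), and that of AGO1 also with DESeq2 (0.234). The other 6 had log2 fold changes from -0.59 (VEGFA, adjusted p = 0.181) to 0.22 (MTCH2, 0.125), and MDH1 was at -0.10 (0.512). Fewer ribosomes on an mRNA and less of that mRNA cannot be told apart in RPF counts alone.

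**Figure D5:**
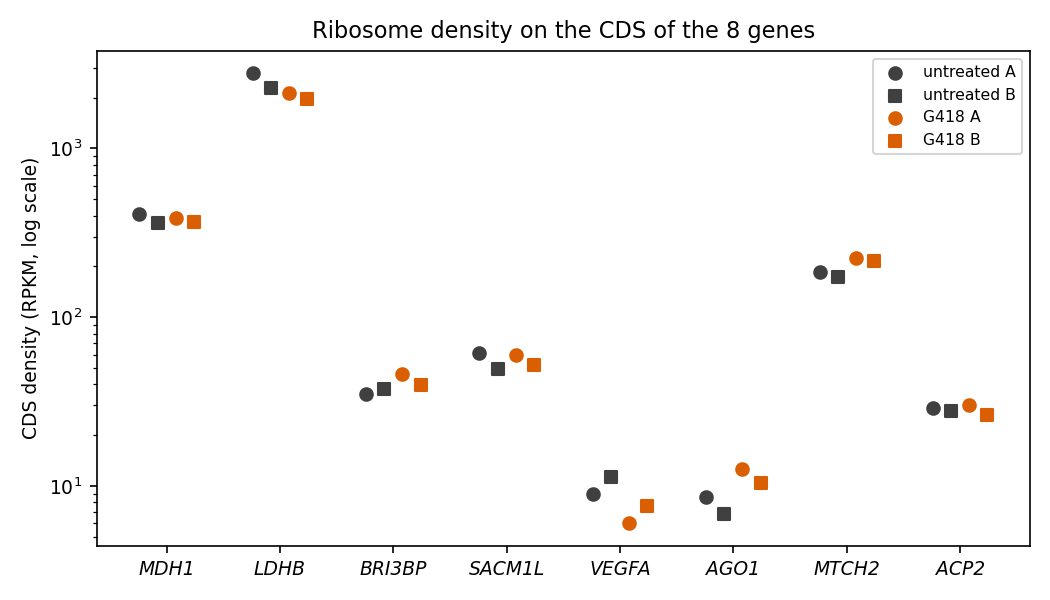
CDS density (y, RPKM on a log scale) of the 8 genes (x) in each library, grey for untreated and orange for G418, circles for replicate A and squares for replicate B. LDHB is highest, from 1971 to 2793 RPKM, with both treated libraries below the untreated ones, and VEGFA and AGO1 are lowest, at 6.01 to 12.6 RPKM.

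Paralogs without known readthrough give a measure of what the same protein family shows at another stop codon. MDH2, the mitochondrial malate dehydrogenase (UGAG), had 2 and 1 RPFs before its 3′TC untreated, an RRTS of 1.48% and 1.65%, and 42 and 48 with G418, 37.4% and 50.9%. Its log2 fold change was 4.72 ± 0.52, and the pooled ratio was 28.4 with an exact 95% interval of 9.40 to 140.05. MDH2, AGO2 and MTCH1 reached the 10 RPFs of the test only through their G418 libraries, so that their calls are not used. MDH1 was at 15.6% and 27.9% untreated and at 60.4% and 63.1% with G418, and the difference between both genes' changes was not tested. LDHA, the A subunit of lactate dehydrogenase (UAAA), had 0 and 1 RPFs on 10262 and 3908 CDS reads untreated and 3 and 3 with G418, an RRTS of 0.721% and 0.887%, while LDHB on the same scale was at 50.5% and 36.2%.

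AGO2 (UGAC) resembled AGO1, with 2 and 1 RPFs untreated (16.3% and 18.6%) and 8 and 8 with G418 (59.1% and 62.7%), and a log2 fold change of 1.77 ± 0.89. AGO3 (UAAA) had no RPF before its 3′TC in any library, where a count of 0 on 36 nt allows an RRTS of up to 149% even in the library with the most CDS reads, and AGO4 had none untreated and 2 and 1 with G418. MTCH1 (UAAC) followed MTCH2 closely, with 1 and 0 RPFs untreated and 14 and 5 with G418, and a log2 fold change of 3.36 ± 1.09. VEGFB and VEGFC, with at most 4 RPFs in a library, were too low for the test.

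Among other genes that GENCODE tags for readthrough, AMD1 and VDR were in all 4 tables. AMD1, the decarboxylase that commits S-adenosylmethionine to polyamine synthesis (UGAU), had 30 and 17 RPFs untreated, an RRTS of 30.02% and 51.4%, and 148 and 96 with G418, 93.5% and 68.8%. On the log2 scale, its RPFs before the 3′TC per CDS read rose by 1.18 ± 0.23 (adjusted p = 1.54e-06). Their relative log2 fold change was -1.81 ± 0.28 (adjusted p = 9.73e-09). From a pooled untreated RRTS of 35.3%, a rise like that of the aggregate would likewise take this density above that on the CDS. The paper describes a ribosome stall at this 3′TC, seen before treatment and more strongly with G418. The counted window includes that codon, so stalled and elongating ribosomes cannot be told apart in these values. In the edgeR test of CDS counts, AMD1 itself rose by 0.81 ± 0.13 on the log2 scale (adjusted p = 0.000134). VDR, the vitamin D receptor (UGAC), had 4 and 1 RPFs untreated (35.2% and 23.8%) and 2 and 4 with G418 (23.3% and 51.3%), and its conditions overlapped. AQP4 was in 2 of the tables, and OPRL1, OPRK1 and MAPK10 were in none of the 4.

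Peroxins, the proteins that import enzymes into peroxisomes, were examined because the extensions of MDH1 and LDHB address these organelles. Of 14 peroxin genes 13 were tested for CDS counts, and the median log2 fold change was 0.07. PEX26, which anchors the import ATPases in the membrane, rose by 0.54 ± 0.16 (adjusted p = 0.0333), and none of the others passed the test. That 1 of 13 was higher is near the 5.31% of all transcripts and sets the peroxins apart in nothing. PEX5, the receptor for the signal at the end of both extensions, had a log2 fold change of -0.27 ± 0.14 (adjusted p = 0.246).

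For each tested gene the transcript with the most similar RRTS over the 4 libraries was found among the 2827, by Euclidean distance of log2(RRTS + 0.001). MDH1 was closest to MLLT1 (distance 0.41), another UGAC transcript, with 15.0% and 35.5% untreated and 52.0% and 64.6% with G418. LDHB was closest to PMAIP1 (0.31), BRI3BP to HPS6 (0.14), SACM1L to NUDT21 (0.28), AGO1 to WASL (0.19) and MTCH2 to FOXRED1 (0.16). NUDT21 shares UGAA with SACM1L, while the other 4 have a different base after the stop codon than the gene they resemble.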

How the data were processed

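Cells were HEK293T, with 2 untreated and 2 G418 libraries (500 ug/mL, 24 hours). The authors collapsed reads by sequence and molecular identifier, removed noncoding RNA reads, aligned the rest to hg38 with STAR and GENCODE version 30, kept a single alignment for reads mapping to several places and used a single transcript per gene, so that CDS reads of genes with near-identical copies are uncertain. The deposited counts are unnormalized RPFs of 28 to 35 nt per transcript region. The deposited RPM values scale these RPFs to the mapped reads of a library. The deposited RPKM densities divide RPM by region length, for which the authors dropped 18 nt at the start and 15 nt at the end of the CDS and 6 nt behind the NTC. RRTS and whole 3′UTR occupancy are deposited as a ratio of densities, and RRTS recomputed here equalled the deposited values. A deposited 5′UTR density, handled as a score, played no part.

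Whole reads were recovered from RPM by the smallest step in each library, and 100% of values were whole within 0.01 read. The deposited counts equalled these reads or were 1 lower. Recovered reads were used for readthrough and deposited counts for the CDS test. Readthrough was tested with edgeR 4.0.16 (quasi-likelihood, log of CDS reads plus 0.5 as offset), CDS counts with edgeR and TMM, and both with DESeq2 1.42.0 as an alternative, adjusted by Benjamini-Hochberg over all transcripts tested. Standard errors are the log2 fold change divided by the square root of F. In data simulated for each comparison, edgeR recovered 91.5% of 4-fold changes in readthrough (2.14% false calls), 59.8% relative to the aggregate (6.30% false) and 98% of 2-fold changes in CDS counts (3.92% false). The readthrough and relative simulations tested 847 and 846 transcripts, all with more RPFs than SACM1L, AGO1 or MTCH2 had. They changed 200 and 199 of them, and the dispersion was set rather than taken from the data. The rates of these 2 simulations therefore do not extend to SACM1L, AGO1 or MTCH2. In the readthrough simulation, unchanged transcripts had the same rate in both conditions, pooled over all libraries. Its untreated RPFs were thus more numerous than those measured, and the general rise with G418 was absent. The 91.5% was therefore not obtained at the untreated depth of these data, for any of the 8 genes. R was 4.3.3. Coordinates and stop contexts come from GENCODE 44 on GRCh38, in which 8901 of 9271 transcripts matched the deposited lengths and stop codons, all 8 genes among them.

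The members, paralogs, other readthrough genes and peroxins were lists chosen with earlier results of these data known. Named besides these were the UGACUAG transcripts with at least 128 mRNA reads in each condition (the 3 highest per condition) and the transcript most similar to each tested gene. PHF19, the only other such transcript, was named after its values were seen.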

Additional observations from a re-analysis of the deposited data

How the results depend on the processing

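Of the changes in readthrough, those of MDH1 and BRI3BP kept their direction and their side of the threshold under all 11 alternatives, and LDHB stayed lower relative to the aggregate under all 9. With DESeq2, 2 of the 8 genes rose in readthrough (5 in edgeR), 1408 transcripts rose and 1 fell (2336 and 2 in edgeR), and in CDS counts 1 of the 8 genes was called (2 in edgeR), with 113 transcripts higher and 140 lower (451 and 273 in edgeR). With at least 5 RPFs, at least 1 RPF or the whole 3′UTR, 6 genes passed, ACP2 being the sixth. ACP2 had 0 RPFs before its 3′TC and 1 after it in each untreated library. It entered these fits only through its G418 RPFs, so that its call is not used. Where they passed, SACM1L and MTCH2 are part of the gene counts in this section, though their calls are not used. With at least 20 RPFs, 1537 transcripts rose, fewer being tested (1662), and over the whole 3′UTR 10 fell. With 4 times the minimum of mRNA reads, 3 genes instead of 6 were above the middle of their stop codon class in untreated cells. There BRI3BP and AGO1 no longer had enough reads and MTCH2 moved to the percentile 45.5. With G418, BRI3BP and AGO1 still had enough reads, at the percentiles 98.9 and 90.2.

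Leaving out each library in turn gave 2 to 5 genes higher in readthrough, the lowest number without G418 replicate A, with 1503 to 2265 transcripts higher and 1 to 2 lower. Relative to the aggregate, 6 to 76 transcripts were then higher and 45 to 144 lower, the lowest numbers without untreated replicate A, which leaves the shallowest untreated library alone. In CDS counts 0 to 3 genes were called, none without G418 replicate A or B, with 57 to 990 transcripts higher and 15 to 1092 lower. The CDS change of SACM1L, not called, ran from -0.14 to 0.056 and turned its sign without untreated replicate A. In these fits the lone library of a condition is assumed to vary like the others.

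The replicate letters are shared by both conditions, but the labels do not say that a letter marks a shared day or batch. Across transcripts, the deviations of both A libraries from their group means had a correlation of 0.222 in CDS counts and 0.0051 in readthrough. With 2 libraries per condition the deviations of B mirror those of A, so that B adds no separate pair. With a replicate block, 5 genes and 1852 transcripts rose in readthrough, 3 genes were lower relative to the aggregate and 2 were called in CDS counts, where 618 transcripts were higher and 452 lower. The cause of these differences was not tested. Depth limits SACM1L, AGO1, MTCH2, ACP2 and VEGFA, which had 0 to 4 untreated RPFs before the 3′TC over both libraries.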
